A study of Mus musculus with 13 samples.

Results

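Levels of 10 genes grouped as less studied were followed in the mouse adrenal gland after deletion of Star was induced: Atp10a, Oca2, Tnfrsf19, Elfn1, Dlgap1, Entpd3, Aldh3b1, Mybpc1, Xrra1 and Gm53. They are 10 of the 14078 genes listed in all 13 libraries, and all 10 were tested. They were chosen by their measured levels at 24 hours or 8 weeks, which were low against those before induction with a small spread, and no numerical threshold was set. Their falls are therefore described below with fold changes and standard errors (SE) and without a test. Nr5a1 was named beside them as the gene to compare their time course with.

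The tissue was the adrenal gland of C57BL/6 mice, and Star, whose protein carries cholesterol into mitochondria as the start of steroid synthesis, was deleted by TAM induction. Sampling gave 5 libraries before TAM, 4 libraries 24 hours later and 4 libraries 8 weeks later. The labels give the strain and tissue but no age, no sex and no name for the deleted allele or the Cre driver, and they do not say whether each library came from its own animal, so a p-value here reflects only how far libraries of a group differ. Mice given TAM without the deletion are not among the samples analysed here, and effects of time, of TAM and of Star loss cannot be told apart.

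By background knowledge, Nr5a1 encodes SF-1, the nuclear receptor that drives the steroid-making genes of the adrenal cortex and binds DNA as a monomer at sites built around AAGGTCA. The 10 genes are not known as members of a common pathway. Atp10a and Oca2 encode membrane transport proteins, Tnfrsf19 a receptor, Elfn1 and Dlgap1 proteins best known from synapses, Entpd3 and Aldh3b1 enzymes, Mybpc1 a muscle filament protein, Xrra1 a protein named for X-ray resistance, and Gm53 a long non-coding RNA.

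Listed reads ran from 17331673 to 27309429 per library. Star stood at 3207 to 4239 FPKM (fragments scaled to transcript length and library depth) before TAM. At 24 hours it was 487, 626, 17.4 and 208 FPKM in replicates 1 to 4, and at 8 weeks 85.9 to 202 FPKM. Replicate 3 was thus the only 24 hours library not above every 8 weeks library. The library labelled 24 hours replicate 3 went against its adrenal label in several genes. Its Cyp21a1, the steroid 21-hydroxylase gene, was at 2.42 FPKM where the other 12 libraries held 239 to 8225, and Mc2r, the ACTH receptor gene, was at 0.132 FPKM against 17.2 to 301. Cyp11b1, another steroid hydroxylase gene, was at 1.07 FPKM against 177 to 4066. Not every cortex gene was lowest there. Hsd3b1, a steroid dehydrogenase gene, was at 3024 FPKM, the highest of the 24 hours libraries. Cyp11a1, the side-chain cleavage gene, was at 983 FPKM, within the 330 to 4656 FPKM of all others. This was still the lowest of the 24 hours libraries and below the 2280 to 4148 FPKM before TAM. Gata4, a transcription factor of gonads and heart, was at 83.0 FPKM there against 0.567 to 6.81 elsewhere. Wt1 was at 49.2 FPKM there against 0.258 to 3.31, and Inha at 246 FPKM against 3.21 to 54.5. Aldh1a1 was at 1459 FPKM there against 12.7 to 84.0, and Hoxd9 at 29.1 FPKM against 1.33 to 3.90. Medullary chromaffin markers were low in the 24 hours replicates 3 and 4, with a summed level over the 10 listed of 29.9 and 147 FPKM against 1472 to 9375 FPKM in the other libraries. Xist, the RNA that silences an X chromosome in female cells, was at 0.0374 and 0.0101 FPKM in these same replicates. It was at 17.7 to 41.6 FPKM in the other 11 libraries. The labels give no sex. The 24 hours replicates 1 and 2 held 23.6 and 17.7 FPKM of Xist, so its low level was not shared by that group. In values over all 24 hours libraries, a difference in sex of replicates 3 and 4 cannot be told apart from the other effects. These check genes were chosen after their values were seen. Some of the values at 24 hours are therefore also given without replicate 3. Fold changes, calls, counts and ranges at 24 hours include it unless stated. In bulk RNA, fewer cells of a type and less RNA per cell cannot be told apart.

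**Figure D1:**
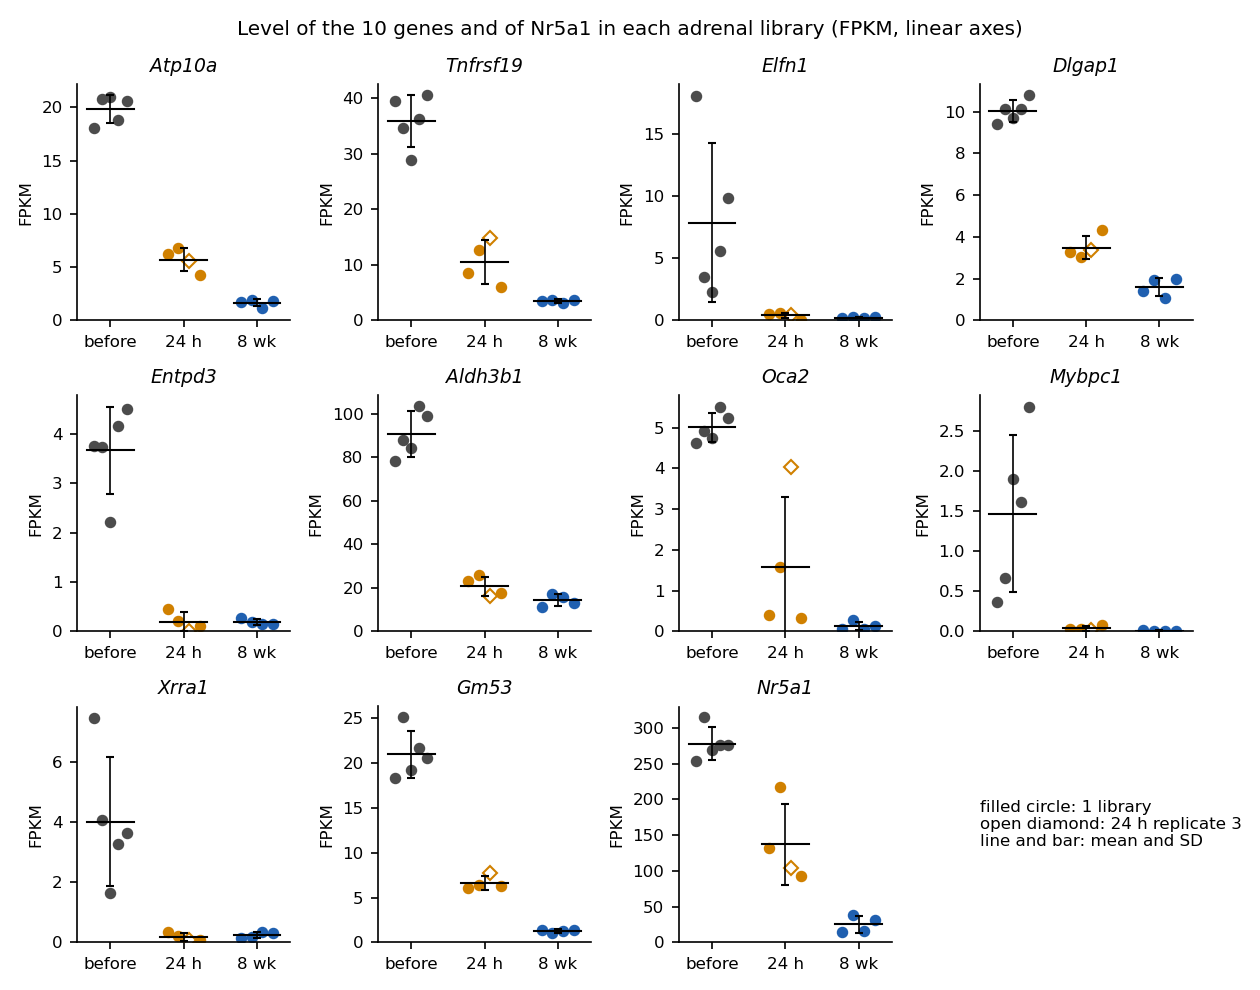
Level of each of the 10 genes and of Nr5a1 in FPKM (vertical axes, linear from 0) in every library, grouped as before, 24 h and 8 wk; each point is 1 library, the open diamond is 24 h replicate 3, and the line and bar are mean and SD, with bars cut at 0. All later points lie below all points from before, while Nr5a1 at 24 h spreads from 93.6 to 218 FPKM.

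In every one of the 10 genes, each 24 hours library and each 8 weeks library lay below each library from before TAM, which the choice of genes leads to. Of all 14078 tested genes, 8.01% had every 24 hours library below every library from before, and 26.5% had every 8 weeks library below them. What differed among the 10 was how the fall was spread over time. In 5 of the 10 every 8 weeks library also lay below every 24 hours library, as it did in 13.3% of all tested genes. These were Atp10a, Tnfrsf19, Dlgap1, Oca2 and Gm53. Without 24 hours replicate 3 Mybpc1 and Aldh3b1 joined them. In Xrra1, Elfn1 and Entpd3 the later groups overlapped with or without that library. In Elfn1 they did so through 24 hours replicate 4 alone.

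Atp10a encodes a flippase, a P4-ATPase that moves phosphatidylcholine between the leaflets of the plasma membrane. It spans chr7:58658202-58829426 on the plus strand (mm10). Before TAM its level was 18.1, 20.8, 20.9, 18.8 and 20.6 FPKM in replicates 1 to 5. At 24 hours it was 6.19, 6.83, 5.55 and 4.26 FPKM, and at 8 weeks 1.71, 1.93, 1.20 and 1.79 FPKM, in replicate order. The 3 groups did not overlap, and each was narrow. The means were 19.8 ± 1.31 (SD, n = 5), 5.71 ± 1.10 (SD, n = 4) and 1.66 ± 0.320 (SD, n = 4) FPKM, and the log2 fold changes against before were -1.78 (SE 0.15) at 24 hours and -3.46 (SE 0.16) at 8 weeks.

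Oca2 encodes an anion transport protein of the melanosome membrane, whose loss causes oculocutaneous albinism. The gene lies at chr7:56239771-56536517, plus strand (mm10). Its level was 4.63, 4.92, 4.76, 5.51 and 5.23 FPKM before TAM, the replicates lying close together. At 24 hours it was 0.410, 1.58, 4.03 and 0.319 FPKM, so replicate 3 was close to the level before while the other replicates were far below. At 8 weeks the libraries held 0.0560, 0.280, 0.0585 and 0.133 FPKM. The log2 fold change at 24 hours, -1.70 (SE 0.63), became -2.64 without replicate 3. At 8 weeks it was -5.13 (SE 0.77), and leaving out 8 weeks replicate 2 moved it to -5.78. Among the 12 melanocyte and melanosome markers looked at, 3 were listed in all tables (Mitf, Kit and Sox10, which mast cells, Schwann cells and others also express), and their summed level ran from 4.12 to 6.26 FPKM before TAM, from 9.60 to 19.5 FPKM at 24 hours and from 10.5 to 12.5 FPKM at 8 weeks. The summed level of these markers was thus higher in each later library than in each library from before, opposite in direction to Oca2. By gene, Mitf was called higher at both times, with 3.12 ± 0.523 FPKM before, 7.01 ± 0.605 at 24 hours and 7.01 ± 0.946 at 8 weeks. Sox10 was called higher at 8 weeks only, and Kit at neither time. Pigment enzyme genes were not among those 3.

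Tnfrsf19, also called TROY, encodes a receptor of the TNF receptor family that marks stem cells in the gut and is linked to Wnt signalling. It lies at chr14:60963834-61046855 on the minus strand (mm10). The level before TAM was 39.4, 34.5, 28.8, 36.2 and 40.6 FPKM. Levels at 24 hours were 8.49, 12.7, 14.8 and 6.10 FPKM. Those at 8 weeks were 3.58, 3.67, 3.08 and 3.75 FPKM. The groups did not overlap, and the 8 weeks libraries were the closest to each other. The log2 fold changes were -1.78 (SE 0.20) at 24 hours and -3.26 (SE 0.21) at 8 weeks.

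The 2 listed transcript models of Tnfrsf19 begin at different sites. RefSeq's GRCm38.p6 table gives a promoter window, 250 bases before to 50 bases after the start, for each. They are printed because the balance of the models was measured below, and neither holds the SF-1 core AAGGTCA on either strand. The window at chr14:61037938-61038237, minus strand, belongs to the 4036-base model, and that at chr14:61046806-61047105, minus strand, to the 4639-base model.
Tnfrsf19 start of the 4036-base model: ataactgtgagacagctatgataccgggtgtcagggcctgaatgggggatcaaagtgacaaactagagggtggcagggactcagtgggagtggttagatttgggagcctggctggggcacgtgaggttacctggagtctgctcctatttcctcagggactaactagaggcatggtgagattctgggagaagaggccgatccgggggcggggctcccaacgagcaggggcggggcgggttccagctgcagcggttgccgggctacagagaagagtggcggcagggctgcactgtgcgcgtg
Tnfrsf19 start of the 4639-base model: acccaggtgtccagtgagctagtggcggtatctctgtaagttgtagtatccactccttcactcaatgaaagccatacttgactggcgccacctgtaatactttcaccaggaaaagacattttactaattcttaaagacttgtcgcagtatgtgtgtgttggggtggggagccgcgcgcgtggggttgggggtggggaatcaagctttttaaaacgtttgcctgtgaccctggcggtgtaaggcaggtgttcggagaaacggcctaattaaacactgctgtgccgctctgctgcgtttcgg
The first window has 60.7% G and C and 13 CpG, and the second 51.0% and 14 CpG, where the medians over all promoters in the table were 52.7% and 7 CpG.

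Elfn1 encodes a leucine-rich repeat membrane protein of excitatory synapses that binds group III metabotropic glutamate receptors on the facing cell. It lies at chr5:139907943-139974724, plus strand (mm10). Before TAM its level was 18.1, 3.53, 2.31, 5.61 and 9.84 FPKM. This was not a small spread: the SD was 81.2% of the mean, and replicate 1 was highest. The later libraries held 0.481, 0.610, 0.433 and 0.0707 FPKM at 24 hours and 0.155, 0.304, 0.190 and 0.271 FPKM at 8 weeks. These later groups overlapped, and the log2 fold changes were -4.29 (SE 0.68) and -4.97 (SE 0.72). Without replicate 1 the mean before TAM was 5.32 ± 3.31 FPKM (SD, n = 4) in place of 7.88 FPKM.

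Dlgap1 encodes a scaffold protein that ties Dlg proteins to Shank proteins beneath synaptic membranes. It lies at chr17:70424792-70821413, plus strand (mm10). Its level was 9.44, 10.1, 9.68, 10.1 and 10.8 FPKM before TAM, the narrowest of the 10 genes with an SD of 5.25% of the mean. It was 3.26, 3.04, 3.35 and 4.32 FPKM at 24 hours and 1.43, 1.92, 1.09 and 1.98 FPKM at 8 weeks. No groups overlapped, and the log2 fold changes were -1.53 (SE 0.18) and -2.56 (SE 0.18).

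Entpd3 encodes an enzyme of the cell surface that breaks down extracellular ATP and ADP. It lies at chr9:120539818-120568326, plus strand (mm10). The level was 3.75, 3.73, 2.21, 4.17 and 4.51 FPKM before TAM, replicate 3 being lowest. At 24 hours it was 0.447, 0.218, 0 and 0.118 FPKM, where the count of 0 in replicate 3 allows up to 0.0277 FPKM by counting error alone (3 reads). At 8 weeks it was 0.273, 0.193, 0.145 and 0.150 FPKM, inside the range of the 24 hours libraries. The log2 fold changes were -4.18 (SE 0.77) and -4.12 (SE 0.77). The former was -3.73 without 24 hours replicate 3 and -4.99 without 24 hours replicate 1.

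Aldh3b1 encodes an aldehyde dehydrogenase of the plasma membrane that oxidises aldehydes made from lipids. It lies at chr19:3913491-3929716, minus strand (mm10), and was the most abundant of the 10 by FPKM before TAM. The libraries then held 78.4, 88.0, 84.0, 104 and 98.7 FPKM. They held 22.9, 25.9, 16.1 and 17.7 FPKM at 24 hours and 11.2, 17.3, 16.0 and 13.1 FPKM at 8 weeks. Most of the distance was covered by 24 hours, and the later groups overlapped through the 24 hours replicate 3 alone. The log2 fold changes were -2.11 (SE 0.19) and -2.52 (SE 0.19).

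The SF-1 core AAGGTCA was searched on both strands in the 11 promoter windows that the RefSeq table gives for 9 of the 10 genes, Gm53 having no entry and nor has Nr5a1. It occurred in 2 of the 11, those of Elfn1 and Aldh3b1, and in 1550 of 32851 windows in the table (4.72%). The longer form CAAGGTCA, which contains the core, occurred in the Aldh3b1 window only among the 11 and in 512 of all windows (1.56%). Both windows are shown with the match in capitals. The Aldh3b1 window is chr19:3929729-3930028, minus strand (GRCm38.p6), with the match on the gene's strand at position -40 from the start, and the Elfn1 window is chr5:139907616-139907915, plus strand, with the core read on the opposite strand at -33.
Aldh3b1 promoter: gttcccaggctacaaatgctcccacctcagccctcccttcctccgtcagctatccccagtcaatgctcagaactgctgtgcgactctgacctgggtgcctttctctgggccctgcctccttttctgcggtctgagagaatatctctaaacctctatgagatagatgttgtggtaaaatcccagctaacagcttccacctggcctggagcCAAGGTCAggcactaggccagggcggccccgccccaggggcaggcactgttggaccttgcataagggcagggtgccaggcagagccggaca
Elfn1 promoter: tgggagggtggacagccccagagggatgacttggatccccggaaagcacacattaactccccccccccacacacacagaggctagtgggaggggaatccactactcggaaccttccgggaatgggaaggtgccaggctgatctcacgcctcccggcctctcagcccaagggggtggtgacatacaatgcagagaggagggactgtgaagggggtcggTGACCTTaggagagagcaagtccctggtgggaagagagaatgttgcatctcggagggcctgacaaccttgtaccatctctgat
A match of letters is a description of these windows, and no binding was measured. The windows counted for Dlgap1, chr17:69968823-69969122 and chr17:70561497-70561796, do not lie at the starts of its listed models (70424792 and 70522110). Those starts were not searched. The windows of Elfn1 and Aldh3b1 also end short of the starts of their listed models (139907943 and 3929716). Their positions -33 and -40 are thus counted from other starts in the RefSeq table, upstream of the listed ones.

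Mybpc1 encodes slow myosin-binding protein C, a part of the thick filament of skeletal muscle. It lies at chr10:88518279-88605152, minus strand (mm10). Its level was low and uneven before TAM, at 0.362, 0.662, 1.91, 1.61 and 2.80 FPKM. At 24 hours it was 0.0288, 0.0303, 0.0163 and 0.0807 FPKM. At 8 weeks it was 0.0178 and 0.0106 FPKM in replicates 1 and 2 and 0 in replicates 3 and 4, where 3 reads would be 0.0347 and 0.0395 FPKM. The values rest on 667 reads before, 15 at 24 hours and 3 at 8 weeks. By counting alone the depth-scaled count was 2.54% of that before at 24 hours (95% interval 1.42% to 4.23%) and 0.62% at 8 weeks (0.127% to 1.82%). PCR copies are not told apart, so these intervals and the limits given for counts of 0 cover counting error only. Of 20 genes of the sarcomere and skeletal muscle, 1 was listed, with at most 0.814 FPKM in any library.

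Xrra1 lies at chr7:99859218-99917824, plus strand (mm10). Its level was 7.48, 4.06, 1.65, 3.27 and 3.62 FPKM before TAM, replicate 1 being the highest. It was 0.357, 0.226, 0.0970 and 0.0687 FPKM at 24 hours and 0.133, 0.190, 0.347 and 0.316 FPKM at 8 weeks. The later groups overlapped, and the mean was 0.187 ± 0.133 FPKM (SD, n = 4) at 24 hours and 0.246 ± 0.102 FPKM (SD, n = 4) at 8 weeks. The log2 fold changes were -4.38 (SE 0.60) and -3.87 (SE 0.58). Spcs2, a signal peptidase subunit gene, overlaps the start of Xrra1 on the opposite strand in GENCODE, and its level was 60.7 ± 2.03, 61.0 ± 5.13 and 48.4 ± 11.4 FPKM (SD, n = 5, 4 and 4), with no call in edgeR's quasi-likelihood test at 24 hours (adjusted p = 0.90) or 8 weeks (adjusted p = 0.26).

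Gm53 is annotated as a long non-coding RNA at chr11:96251660-96264484, plus strand (mm10), with a spliced length of 617 bases. Its level was 18.4, 25.1, 19.3, 21.8 and 20.5 FPKM before TAM. It was 6.04, 6.42, 7.73 and 6.34 FPKM at 24 hours and 1.42, 1.01, 1.33 and 1.35 FPKM at 8 weeks. The 3 groups were narrow and apart from each other, and the log2 fold changes were -1.65 (SE 0.20) and -3.90 (SE 0.22). From 15 to 25 reads lay behind each 8 weeks value.

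Nr5a1 (chr2:38692660-38714542, minus strand, mm10) stood at 253, 315, 269, 276 and 276 FPKM before TAM. It was 132, 218, 104 and 93.6 FPKM at 24 hours and 13.9, 38.9, 16.1 and 31.7 FPKM at 8 weeks. The groups did not overlap. At 24 hours the log2 fold change was -0.995 (SE 0.306), past the threshold of 0.05 in edgeR's quasi-likelihood test with Benjamini-Hochberg adjustment over all genes (adjusted p = 0.0378) and lower in 4 of 4 libraries. That call was lost in 8 of the 13 fits that left out 1 library, as without 24 hours replicate 3 (log2 fold change -0.84, adjusted p = 0.068). At 8 weeks it was -3.36 (SE 0.34, adjusted p = 1.95e-05), and from 24 hours to 8 weeks -2.36 (SE 0.33, adjusted p = 0.00167).

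**Figure D2:**
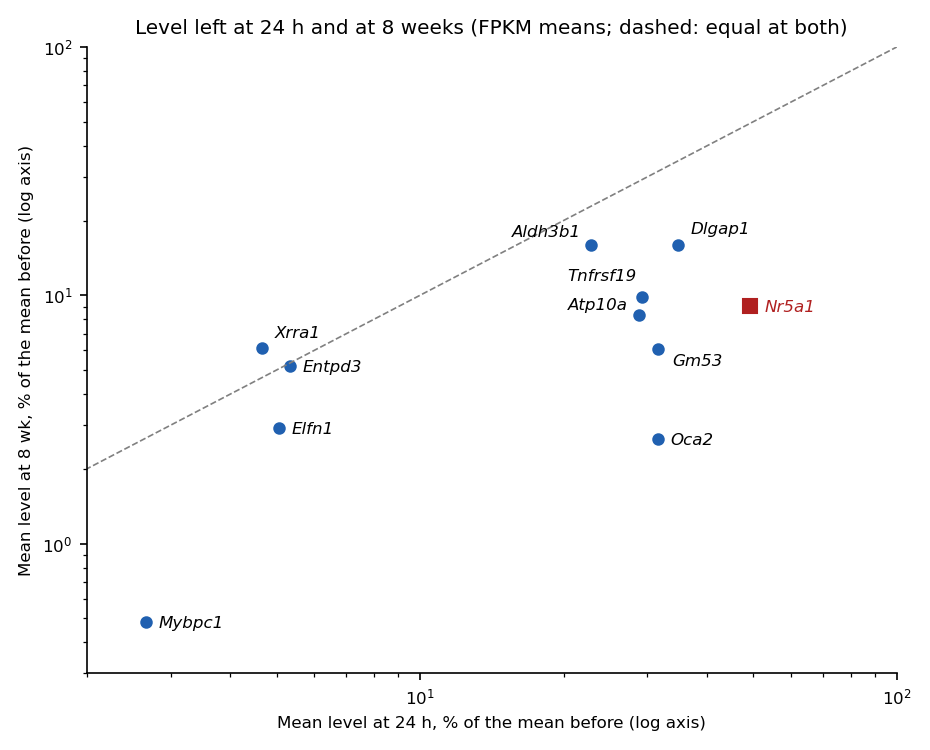
Mean FPKM left at 24 h (horizontal, log axis) and at 8 wk (vertical, log axis), each as a percentage of the mean before TAM; circles are the 10 genes, the square is Nr5a1, and the dashed line marks equal levels at both times. Nr5a1 lies farthest to the right, at 49.3% of its level before at 24 h, while at 8 wk its 9.04% falls among the 10 genes.

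The 10 genes and Nr5a1 differed most at 24 hours. Mean Nr5a1 FPKM was then 49.3% ± 20.2 of that before (SD, n = 4), and the 10 genes lay between 2.66% (Mybpc1) and 34.8% (Dlgap1). Without replicate 3 Nr5a1 stood at 53.2% and the 10 genes between 3.17% and 35.3%. At 8 weeks Nr5a1 was at 9.04% ± 4.35 (SD, n = 4), inside the range of the 10, which ran from 0.484% (Mybpc1) to 16.0% (Dlgap1). Tnfrsf19, Dlgap1 and Aldh3b1 were above Nr5a1 by this measure and the other 7 below it.

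Taken library by library, the 24 hours order was the same in replicates 1 and 2, where all 10 genes had a lower percentage of their level before than Nr5a1. In replicate 4 this held for 9, Dlgap1 being the exception at 43.1% against 33.7%. In replicate 3, which went against its label, it held for 8. At 8 weeks 4, 8, 4 and 8 of the 10 were below Nr5a1 in replicates 1 to 4. The replicates with 4 were those with the lowest Nr5a1, at 5.00% and 5.79% of its level before. The 10 genes were chosen for low levels at these times, which favours a place below Nr5a1. These counts and the percentages above are therefore a description, and no share of all genes is given beside them.

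The share of the 8 weeks log2 fall already present at 24 hours was 29.7% for Nr5a1. It was larger for all 10 genes, at 33.1% for Oca2, 42.3% for Gm53, 51.5% for Atp10a, 54.7% for Tnfrsf19, 59.7% for Dlgap1, 72.1% for Mybpc1, 83.7% for Aldh3b1, 86.3% for Elfn1, 102% for Entpd3 and 113% for Xrra1. A value over 100% means that the fitted level at 24 hours was below that at 8 weeks. For Entpd3 and Xrra1 this step was smaller than its SE, with log2 fold changes from 24 hours to 8 weeks of 0.06 (SE 0.74) and 0.50 (SE 0.57). Since a large fall at 24 hours was a way into the list, this order is a description. Without 24 hours replicate 3 Nr5a1 was at 24.8% and the 10 genes between 42.4% (Gm53) and 105.1% (Xrra1). The share of Oca2 then rose to 51.1%.

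**Figure D3:**
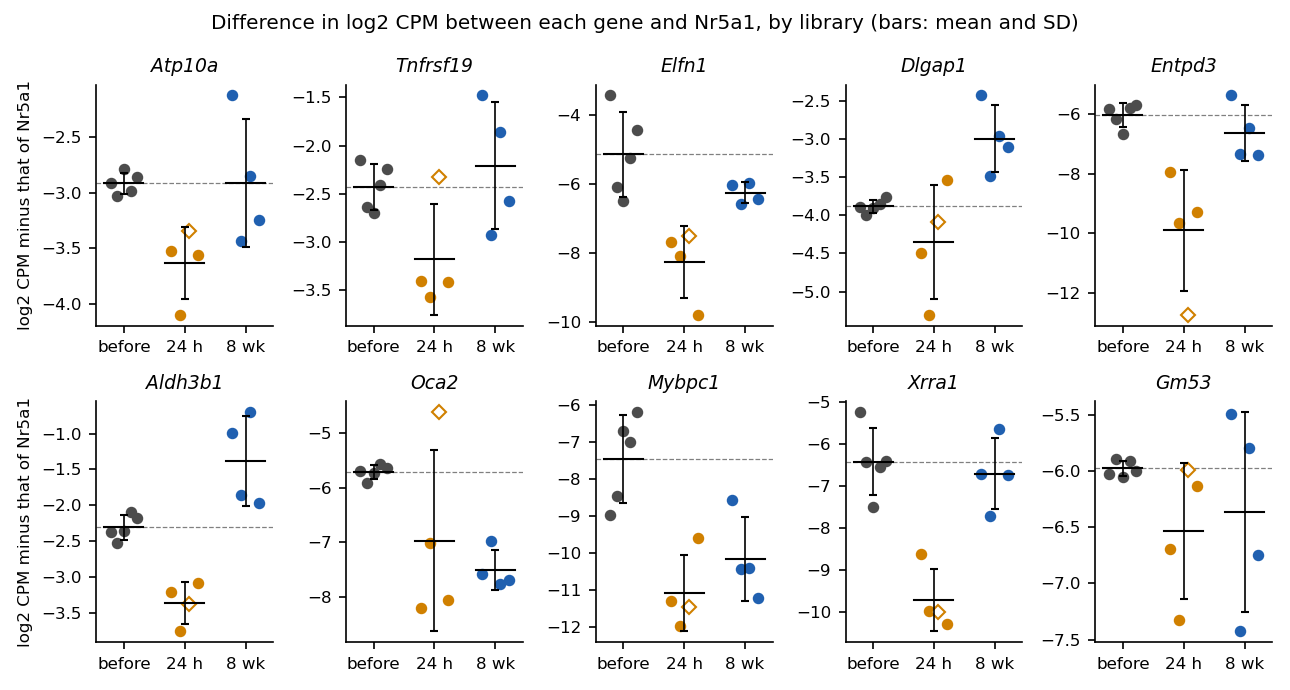
Difference in log2 CPM (counts scaled to library depth, with a prior count) between each of the 10 genes and Nr5a1 in the same library, by group; points are libraries, the open diamond is 24 h replicate 3, lines and bars are mean and SD, and the dashed line is the mean before TAM. For Atp10a the mean difference is -2.91 before, -3.63 at 24 h and -2.91 at 8 wk, so its level relative to Nr5a1 dips at 24 h and is back at 8 wk.

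Set against Nr5a1 in the same library, most of the 10 genes dipped at 24 hours and were less far below it at 8 weeks. Not all of them came back to their difference before TAM. The mean log2 CPM of Atp10a was 2.91 ± 0.10 (SD, n = 5) below that of Nr5a1 before TAM, 3.63 ± 0.33 (SD, n = 4) below it at 24 hours and 2.91 ± 0.58 (SD, n = 4) below it at 8 weeks. For Aldh3b1 the mean log2 difference to Nr5a1 was -2.31 ± 0.17 before, -3.36 ± 0.29 at 24 hours and -1.38 ± 0.63 at 8 weeks (SD, n = 5, 4 and 4). For Dlgap1 it was -3.88 ± 0.09, -4.36 ± 0.75 and -2.995 ± 0.437. Aldh3b1 and Dlgap1 were thus nearer to Nr5a1 at 8 weeks than they had been before. At 8 weeks Nr5a1 had a log2 fold change of -3.36, while the median of all genes was 0.03. A gene at that median also rose against Nr5a1. Farther below Nr5a1 than before were Mybpc1 (-10.2 at 8 weeks, -7.47 before), Elfn1 (-6.245, -5.13) and Gm53 (-6.365, -5.98). So were Entpd3 (-6.64, -6.04) and Xrra1 (-6.71, -6.43), while Tnfrsf19 was nearer (-2.21, -2.43). Oca2 had -5.71 ± 0.13 before, -6.97 ± 1.66 at 24 hours and -7.50 ± 0.36 at 8 weeks. Its step down after 24 hours rests on 24 hours replicate 3 (-4.61), since without that library its 24 hours value was -7.76 ± 0.65 (SD, n = 3).

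Over the 13 libraries the log2 CPM of Nr5a1 correlated with that of Atp10a at r = 0.952, of Gm53 at 0.934, of Oca2 at 0.921, of Tnfrsf19 at 0.917 and of Dlgap1 at 0.908. The coefficient was 0.826 for Aldh3b1, 0.800 for Mybpc1, 0.748 for Elfn1, 0.641 for Xrra1 and 0.593 for Entpd3. These values are carried by the 3 groups, which all points share. Within groups the coefficient ran from -0.49 (Gm53) to 0.686 (Atp10a).

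Among the 10 genes themselves, the 45 pairs had a median r of 0.885 over all libraries and of -0.018 within groups. The highest within-group value was 0.746, for Tnfrsf19 with Elfn1, and the lowest was -0.662, for Entpd3 with Oca2. Libraries of a group that were high in 1 of the 10 genes were therefore not in general high in the others. These coefficients share library and depth and are given as a description.

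By the mean profile of the 10 genes, the 5 other genes most alike over 13 libraries were Cacnb2, a calcium channel subunit gene (r = 0.986), Abhd4, a lipid hydrolase gene (0.985), Dock1, a guanine exchange factor gene (0.981), Scube3, a secreted glycoprotein gene (0.979), and Rab40c, a small GTPase gene (0.977). Nr5a1 ranked 266 of 14068 genes with r = 0.885, but 511 without 24 hours replicate 3 and 35 by Spearman's coefficient. Cacnb2 had means of 19.2 ± 2.21, 5.51 ± 1.09 and 2.71 ± 0.767 FPKM before, at 24 hours and at 8 weeks (SD, n = 5, 4 and 4). The naming was not firm: none of the 5 was among the 5 most alike by Spearman's coefficient, and 1 of them, Cacnb2, without 24 hours replicate 3.

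Whether the transcript models of a gene fell alike was asked for genes with at least 2 listed models and a mean of at least 20 reads in each group, Tnfrsf19 and Dlgap1. The 4036-base model of Tnfrsf19 held 60.3%, 55.9%, 67.4%, 67.3% and 67.0% of the gene's FPKM before TAM. It held 54.9%, 66.1%, 79.1% and 72.0% at 24 hours and 89.2%, 93.3%, 64.7% and 79.2% at 8 weeks. The mean share was 63.6% ± 5.23 before and 81.6% ± 12.7 at 8 weeks, with overlap between the groups. In Dlgap1 the 5306-base model held 71.1%, 40.4%, 56.9%, 61.7% and 60.4% before TAM, 49.9%, 68.6%, 77.0% and 63.8% at 24 hours and 97.7%, 97.8%, 75.5% and 67.3% at 8 weeks. The mean share was 58.1% ± 11.2 before and 84.6% ± 15.6 at 8 weeks.

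In a two-sided exact permutation test the share differed between 8 weeks and before by 26.5 percentage points for Dlgap1 (exact p = 0.0317, adjusted over 6 tests 0.19) and by 18.0 points for Tnfrsf19 (exact p = 0.0635, adjusted 0.191). None of the 6 differences passed after adjustment. The smallest exact p this design allows is 0.016 for 5 against 4 libraries and 0.029 for 4 against 4. A change in the balance of models was therefore not shown at this number of libraries.

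**Figure D4:**
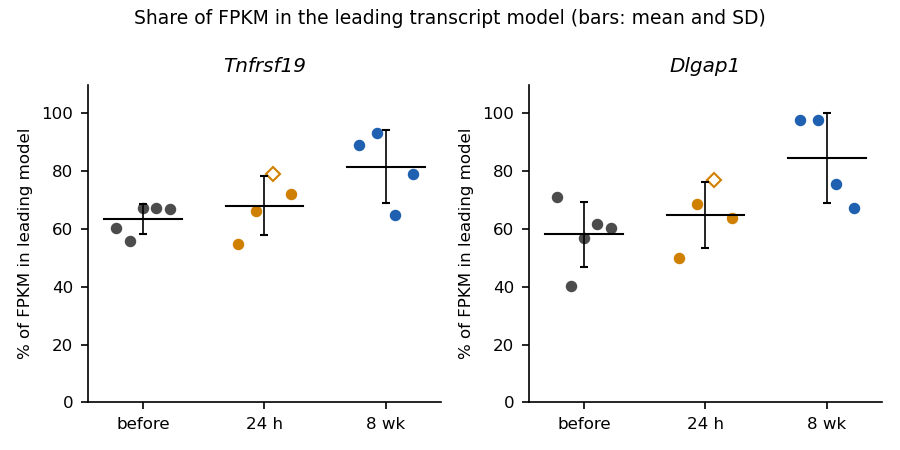
Percentage of a gene's FPKM held by its leading transcript model (vertical axis, from 0) in each library before TAM, at 24 h and at 8 wk, for Tnfrsf19 and Dlgap1; points are libraries, the open diamond is 24 h replicate 3, and lines and bars are mean and SD. The mean for Dlgap1 is 58.1% before and 84.6% at 8 wk, with overlapping libraries.

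Relatives of the 10 genes were looked at by family and pathway. Of 113 listed relatives 88 were tested, and at 8 weeks against before 21 were higher and 18 lower by edgeR's adjusted p under 0.05, where 36.9% of all genes were called, 20.5% higher and 16.4% lower. Without a scaling factor the balance turned, to 18 higher and 22 lower. At 24 hours 17 were higher and 12 lower, beside 12.6% and 6.63% of all genes, 19.2% in all. The median log2 fold change of the 88 was 0.10 at 8 weeks, and that of all genes 0.03.

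Of the 12 tested relatives of Atp10a among the P4-ATPases, 3 were called at 8 weeks, all of them higher: Atp8b4 (log2 fold change 1.61, SE 0.27), Atp8b1 (2.40, SE 0.41) and Atp8a1 (1.00, SE 0.21). Their median was 0.16. The 16 tested relatives of Tnfrsf19 among the TNF receptors gave 6 calls, all higher. Tnfrsf1b, a receptor for TNF itself, was at 5.35 ± 1.45 FPKM before and 31.0 ± 6.44 FPKM at 8 weeks (log2 fold change 2.68, SE 0.24), and Tnfrsf21 was at 1.77 ± 0.385 and 8.10 ± 1.22 FPKM (2.33, SE 0.19). Tnfrsf11a, the RANK receptor gene, had a log2 fold change of 1.66 (SE 0.30). Beside these, macrophage markers stood at a summed 271 to 897 FPKM before, 2028 to 3174 FPKM at 24 hours and 4653 to 9344 FPKM at 8 weeks over the 9 of 10 listed, and their part in these values was not tested.

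Some canonical Wnt target genes, to which Tnfrsf19 is linked by background knowledge, were lower too. Of 10 tested, 6 were called at 8 weeks, all lower, with a median log2 fold change of -1.57, and 3 were lower at 24 hours. Over all genes 16.4% were lower at 8 weeks and 6.63% at 24 hours. Notum, Rnf43, Apcdd1 and Lgr5 were not called at 8 weeks. Lgr5 went up, from 9.01 ± 3.72 to 17.8 ± 3.27 FPKM (log2 fold change 1.13, SE 0.63, edgeR's adjusted p = 0.18). Nkd1, an inhibitor of the pathway, was at 11.2 ± 2.06 FPKM before and 2.70 ± 0.987 FPKM at 8 weeks, a log2 fold change of -1.92 (SE 0.26, adjusted p = 0.00014). Znrf3, which removes Wnt receptors, and Lef1, a transcription factor of the pathway, had log2 fold changes of -1.67 (SE 0.23) and -1.96 (SE 0.32). The 18 markers of the steroid-making cortex gave 11 calls at 8 weeks, all lower, with a median of -2.72, and 4 lower at 24 hours, so cortex markers moved in the same direction. Their summed level was 19720 to 32400 FPKM before and 2039 to 5049 FPKM at 8 weeks. At 24 hours it was 17780, 29680, 4498 and 23200 FPKM in replicates 1 to 4, so only replicates 1 and 3 lay below the range before. The part of the cortex markers in the values of the Wnt target genes was not tested.

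Among 13 tested postsynaptic scaffold genes, 4 were lower and 1 higher at 8 weeks, beside 16.4% and 20.5% of all genes. Their median log2 fold change was 0.14, so the list was not lower as a whole. Dlg2, a scaffold that binds Dlgap proteins, was at 38.3 ± 7.64 FPKM before, 4.07 ± 3.44 FPKM at 24 hours and 4.81 ± 0.686 FPKM at 8 weeks, with log2 fold changes of -3.16 (SE 0.67, adjusted p = 0.006) and -2.89 (SE 0.66, adjusted p = 0.0046). Dlg3 and Dlg1 were lower at 8 weeks by -0.99 (SE 0.23) and -0.76 (SE 0.22) in log2. Of the 5 tested relatives of Elfn1, Lrfn1 was lower (-1.58, SE 0.24), and so was Lrfn3 (-0.71, SE 0.23), whose call was lost in 3 of the other settings. The summed level of the 10 neuron markers was 48.3 to 139 FPKM before, 56.7 to 133 FPKM at 24 hours and 177 to 243 FPKM at 8 weeks. At 8 weeks 4 of them were called, all higher, and Rbfox3 was lower without a call (0.778 ± 0.14 to 0.254 ± 0.22 FPKM). Medullary chromaffin markers also had a higher sum, 1472 to 6269 FPKM before and 6601 to 9375 FPKM at 8 weeks. Their part in the neuron sum was not tested.

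Among 15 tested ectonucleotidases and adenosine receptors 9 were higher and 2 lower at 8 weeks, so Entpd3 stood apart in direction from most of them. Entpd1, which breaks down the same substrates, was at 10.1 ± 0.870 FPKM before and at 20.3 ± 2.87 FPKM at 8 weeks, a rise of 1.13 in log2 (SE 0.14, adjusted p = 6.2e-05). Enpp1, which makes AMP from ATP, rose by 2.22 (SE 0.34) in log2, and Entpd4, an enzyme of the Golgi, fell by 1.37 (SE 0.23). Of the 17 tested aldehyde dehydrogenases 2 were higher and 4 lower. Aldh1b1, a mitochondrial form, fell by 1.75 (SE 0.42), while Aldh1a7 and Aldh1a3, of the cytosolic class that holds the retinaldehyde dehydrogenases, were higher by 3.38 (SE 0.85) and 1.09 (SE 0.28).

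The genes next to the 10 were tested to see whether the falls reached beyond them. Within 100 kb there were 14 tested neighbours, none of them beside Atp10a, and 4 were lower and 3 higher at 8 weeks and 1 lower and 3 higher at 24 hours. Over all genes 16.4% were lower and 20.5% higher at 8 weeks, and 6.63% and 12.6% at 24 hours. The neighbours' median log2 fold change at 8 weeks was -0.07. Apart from Hoxb9 the lower ones were small: Herc2, a ubiquitin ligase gene beside Oca2, at -0.58 (SE 0.15, adjusted p = 0.0083), Rnf169, a gene of DNA damage signalling beside Xrra1, at -0.56 (SE 0.17, adjusted p = 0.024) and Mipep, a mitochondrial peptidase gene beside Tnfrsf19, at -0.44 (SE 0.15, adjusted p = 0.04). The calls of Rnf169 and Mipep were lost when single libraries were left out, Rnf169 without any of the 8 weeks replicates 1, 2 and 4 (adjusted p = 0.055 to 0.067) and Mipep without any of the 8 weeks replicates 1, 2 and 3 or before replicates 1 and 4 (adjusted p = 0.052 to 0.11).

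Chpt1, a phosphocholine transferase gene beside Mybpc1, was higher at 8 weeks, with 292 ± 121 FPKM against 65.9 ± 26.3 FPKM before (2.20 in log2, SE 0.43, adjusted p = 0.0018). Spic, on the other side of Mybpc1 and a transcription factor of iron-recycling macrophages, was called higher at 24 hours, from 1.58 ± 0.443 to 7.67 ± 1.76 FPKM (2.31, SE 0.37, adjusted p = 0.00099), with 1.48 ± 0.675 FPKM at 8 weeks. Unc93b1, a carrier of Toll-like receptors beside Aldh3b1, was higher at 24 hours (0.93, SE 0.21, adjusted p = 0.0084) and at 8 weeks (1.04, SE 0.21, adjusted p = 0.0021). Spic and Unc93b1 are known from macrophages, whose markers are given above, and the part of those cells in these values was not tested. Eif1b, a translation factor gene beside Entpd3 (log2 fold change 0.47, SE 0.16, adjusted p = 0.037 at 8 weeks) and Tgif1, a homeobox repressor gene beside Dlgap1 (0.98, SE 0.31, adjusted p = 0.043 at 24 hours) were called higher, but the former lost its call without a scaling factor (adjusted p = 0.14), and the latter was at 0.08 (adjusted p = 0.80) without the 24 hours replicates 3 and 4.

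**Figure D5:**
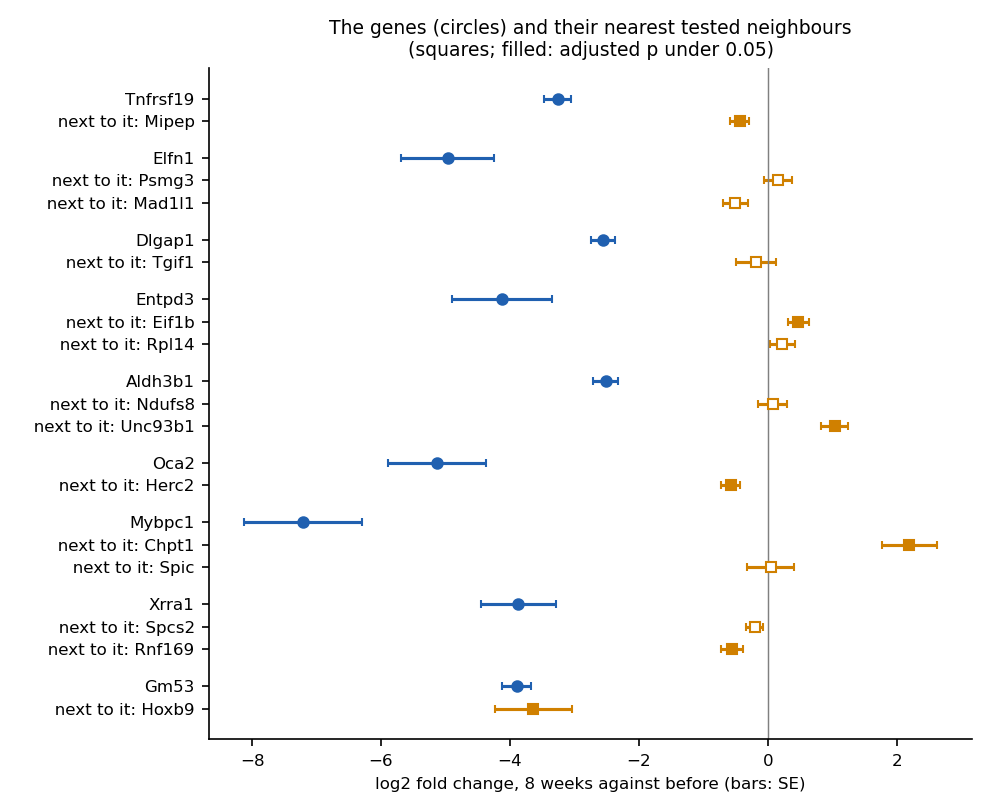
log2 fold change at 8 wk against before (horizontal axis; bars are SE) for those of the 10 genes with a tested neighbour within 100 kb (circles) and for those neighbours (squares, filled where the adjusted p is under 0.05). Hoxb9, at -3.64, lies beside its neighbour Gm53, at -3.90, while the other neighbours lie between -0.58 and 2.20.

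Hoxb9, a homeobox gene 6846 bp from Gm53 on the same strand, fell with it. Its level was 67.3, 99.2, 106, 125 and 99.3 FPKM before TAM. It was 42.3, 58.0, 4.17 and 33.8 FPKM at 24 hours, replicate 3 being far below the others, and 5.75, 11.6, 4.24 and 8.07 FPKM at 8 weeks. The log2 fold change at 8 weeks was -3.64 (SE 0.59, adjusted p = 0.00051), with all 4 libraries below all 5 from before. At 24 hours it was -1.47 (SE 0.54, adjusted p = 0.072). In replicate 3 Gm53, at 7.73 FPKM, was the highest of its group, while Hoxb9 was the lowest of its own.

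The 8 listed genes of the Hoxb cluster were then looked at together, a choice made after the value of Hoxb9 was seen. Their mean FPKM at 8 weeks was 7.47% to 59.1% of that before. Hoxb9 was lowest and Hoxb4 highest. Hoxb8, the next gene on from Hoxb9, stood at 21.7% of its level before, and Hoxb7 went from 30.6 ± 1.03 to 12.2 ± 2.52 FPKM. Gm53, at 6.07% of its level before, was thus near Hoxb9 in how little was left. All 8 Hoxb genes had their lowest 24 hours value in replicate 3, where Gm53 had its highest.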

How the data were processed

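The authors deposited, per the file headers, an expected count (an estimated number of reads, which need not be whole) and FPKM for each RefSeq transcript and library, on mm10. The submitters' processing notes name bcl2fastq 2.17 and TopHat2 2.0.14, and the labels' protocols a stranded mRNA kit. The annotation release and the counter are not given in the sources used here. The deposited tables listed 19655 transcripts for the libraries before TAM and at 8 weeks and 19191 for those at 24 hours, and the 18738 in all of them were used, so genes listed in some tables only are outside the fits.

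Expected counts were summed per gene, rounded, and tested in all 13 libraries with edgeR 4.0.16 in R 4.3.3 (TMM scaling, quasi-likelihood test, Benjamini-Hochberg adjustment over 14078 genes, threshold 0.05). FPKM were summed over a gene's transcripts and used for levels and shares. Exact permutation tests used SciPy 1.17.1. Percentages of the level before are of mean FPKM. The edgeR fit was tested on simulated data. DESeq2 1.42.0 was an alternative, with other scalings, no filter, a replicate block and each library left out. Replicate numbers in the labels did not pair the libraries, since correlations of same-numbered libraries' deviations were over 0.1 in 2 of 12 pairs. Promoter windows come from RefSeq, GRCm38.p6, and overlapping genes from GENCODE.

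The 10 genes and the lists of relatives and markers were chosen with earlier results of these data known. Named genes are all 10 and Nr5a1, the nearest tested gene on either side within 100 kb, up to 3 called relatives per list in order of p at 8 weeks, and the 5 genes most alike in profile. Named outside this rule after their values were seen were Hoxb genes and the genes that check a library's label.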

Additional observations from a re-analysis of the deposited data

Results flagged for a closer look

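Each group of values was searched with Dixon's test for a library far from the others, a test that singles out about 1 in 20 groups by chance. None of the 39 groups for the 10 genes, Nr5a1 and the transcript shares had such a library. The 10 genes were chosen partly for a small spread, so this says little about them. Over 237 groups, which add the neighbours, named relatives, Hoxb genes, check genes and marker lists, 17 did. Gata4 was at 83.0 FPKM in 24 hours replicate 3 and at 6.81 FPKM in replicate 1 from before, both far above their groups. In the same 24 hours library Znrf3 was high at 5.53 FPKM, and the listed muscle gene at 0.814 FPKM. Mipep, beside Tnfrsf19, was low in 24 hours replicate 4 at 7.14 FPKM. Before TAM, Mc2r was high in replicate 3 at 301 FPKM, Aldh1a3 in replicate 2 at 11.3 FPKM and Entpd4 in replicate 5 at 156 FPKM. Dock1 was high at 12.1 FPKM in 8 weeks replicate 4. Among summed marker levels, fat was low in replicate 1 from before at 217 FPKM, where lymphocyte markers were high at 11.2 FPKM. Lymphocyte markers were at 101 FPKM in 8 weeks replicate 1, and X-zone markers at 381 FPKM in 8 weeks replicate 4. The muscle gene was at 0.197 FPKM in 8 weeks replicate 3. The listed liver and kidney gene was high in replicate 5 from before at 978 FPKM, in 24 hours replicate 2 at 11.7 FPKM and in 8 weeks replicate 3 at 13280 FPKM.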

How the results depend on the processing

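The log2 fold changes of the 10 genes, which were chosen for their falls, kept their sign under all 20 alternatives run. Among these the fit without a filter gave the same values as the main fit, since the filter had removed no gene. It could change nothing, and its values are among the 264 below. At 24 hours that of Atp10a was -1.56 without the 24 hours replicates 3 and 4. Most other values stayed close: of 264 values of main comparisons under alternatives, 247 kept their direction and their side of the threshold or stayed within 1.5 times. With the replicate number as a block, whose numbers do not pair the libraries (each correlated best with its own number in 3 of 24 cases), 1312 genes were called at 24 hours against before in place of 2708, and 1661 from 24 hours to 8 weeks in place of 2923. The block changed no call of Nr5a1. With only the groups compared in the fit, 973 genes were called from 24 hours to 8 weeks. Leaving out 1 library at a time, that count ran from 1782 to 4300, the count of called neighbours at 8 weeks from 4 to 8, and the Nr5a1 log2 fold change at 24 hours from -1.32 to -0.84, with 8 of the calls lost. Without the 24 hours replicates 3 and 4 together it was -0.62 (adjusted p = 0.23). The cause of these shifts was not tested, apart from fewer libraries. Without scaling, 2424 genes were called higher and 3054 lower at 8 weeks against before, in place of 2882 and 2311, and 1181 and 2093 from 24 hours to 8 weeks, in place of 1428 and 1495. The median log2 fold change of all genes then moved from 0.03 to -0.10 and from -0.03 to -0.12. Of the 5 genes most alike in profile, 0 were shared by Spearman's coefficient and 1 without 24 hours replicate 3. Depth limits Mybpc1, Entpd3, Xrra1, Elfn1 and Oca2 at the later times, where single libraries held fewer than 10 reads for some of them.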

Other observations

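Markers of other cells moved with the later groups. At 8 weeks 20.5% of all genes were called higher. Lymphocyte markers rose at 8 weeks in 8 of 8 genes tested with a median log2 fold change of 3.14, macrophage markers in 9 of 9 with 2.39, and capsule and fibroblast markers in 8 of 10 with 1.61 (edgeR's quasi-likelihood test, adjusted p under 0.05). Fat markers rose in 5 of 10, with summed levels of 217 to 2041 FPKM before and 8243 to 17660 FPKM at 8 weeks. X-zone markers ranged from 7.83 to 1812 FPKM among the libraries from before alone.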
